A study of Mus musculus with 4 samples.

Results

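The cytosolic ribosomal protein genes were examined in sorted cells of the mouse small intestine. A member was any gene whose array symbol, brought to its current form, is Rpl or Rps followed by a number with an optional letter a, l, x or y, or is Rplp0 to Rplp2 or Rpsa. Pseudogenes and the S6 kinases were left out. This gave 57 genes among the 16390 named on the array, 35 of the large subunit and 22 of the small subunit. The RefSeq annotation holds 84 symbols of this form, and 27 of them have no probe named here, Rplp0 and Rplp2 among them. Each member was read on 1 probe, the brightest by its mean over the 4 arrays.

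The cytosolic ribosome joins a small subunit, which decodes the mRNA, to a large subunit, which forms the peptide bond and carries the tunnel through which the new chain leaves. Each protein is needed in close to equal number, and ribosomes are made in bulk in growing and dividing cells such as those of the intestinal crypt and of adenomas. Ribosomal protein mRNAs typically begin with a C and a run of pyrimidines, the 5′ terminal oligopyrimidine tract, through which mTOR and the RNA-binding protein Larp1 control their translation. An array reports RNA abundance and says nothing of this translational control.

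There were 4 samples of male mice with 1 array each. All mice carried a Dclk1CreERT2/+ allele, which puts the Cre recombinase under the control of the tuft cell gene Dclk1, and the tumor mice also carried ApcMin/+, which starts Wnt-driven adenomas. The Dclk1- tumor sample came from 1 mouse of 17 weeks and the Dclk1+ tumor sample from 7 mice of over 16 weeks. The Dclk1- normal sample came from 1 mouse and the Dclk1+ normal sample from 2 mice, all of 26 weeks. Per the labels' protocols, Dclk1+ tumor cells were sorted by GFP, and how the remaining cells were gated was not stated in the labels. With 1 array in a group there is no replicate. No difference was tested, the spread between animals is unknown, and "higher" and "lower" describe 2 arrays. Histology, age and array set cannot be told apart.

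The start sites are shown because a tract at the start is the sequence feature these genes are best known for, although the annotated start bears one in a minority of members. RefSeq promoter sequences (GRCm38.p6) were found for 45 of the 57 members. The windows below run from 30 bases before the annotated start to 15 bases from it on, and are given 5′ to 3′ on the gene's strand. Capitals mark a C at the annotated start with the pyrimidines that follow it. The first 5 genes were higher in tumor than in normal Dclk1+ cells, Rps15a and Rps21 were not although they carry the tract, and Rps4x and Rpsa, which had the largest differences of all, have no such tract within 3 bases of the annotated start.
Rpl28 (chr7:4792935-4792979, plus strand): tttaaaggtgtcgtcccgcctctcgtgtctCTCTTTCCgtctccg
Rpl14 (chr9:120571487-120571531, plus strand): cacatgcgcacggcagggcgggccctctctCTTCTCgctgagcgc
Rpl35 (chr2:39005117-39005161, minus strand): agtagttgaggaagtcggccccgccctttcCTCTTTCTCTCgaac
Rps10 (chr17:27635230-27635274, minus strand): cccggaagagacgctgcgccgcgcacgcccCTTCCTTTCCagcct
Rps18 (chr17:33955651-33955695, minus strand): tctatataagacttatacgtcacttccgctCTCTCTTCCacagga
Rps15a (chr7:118116133-118116177, minus strand): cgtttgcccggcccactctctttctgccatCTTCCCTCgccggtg
Rps21 (chr2:180257349-180257393, plus strand): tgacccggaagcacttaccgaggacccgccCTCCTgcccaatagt
Rps4x (chrX:102189377-102189421, minus strand): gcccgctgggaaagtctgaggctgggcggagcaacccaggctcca
Rpsa (chr9:120127736-120127780, plus strand): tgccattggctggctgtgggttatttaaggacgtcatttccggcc

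A C at the annotated start followed by at least 4 pyrimidines was present in 11 of 45 members (24.4%), against 2.77% of the 13127 array genes with a promoter sequence and 2.51% of all 32851 promoters. With the C allowed within 3 bases of the start, the shares were 42.2% of members and 11.5% of all promoters. The annotated start is often not the main start of transcription. In a window from 50 bases before to 49 after it, a C with at least 7 pyrimidines stood in 41 members (91.1%) and in 32.3% of array genes and 28.5% of all promoters. Other motifs were searched on both strands of the whole 300-base window. The ETS core CCGGAA, whose reverse strand can overlap the end of a tract, was found in 60.0% of members and 23.7% of array genes (14.9% of all promoters). The TATA box TATAAA was found in 4.44% and 12.5% (13.6% of all promoters), the E-box CACGTG bound by Myc in 11.1% and 10.1% (7.15%), and the GC box GGGCGG in 53.3% and 56.9% (35.7%). The letters AAGATGGC, from the YY1 motif, were found in 11.1% of members and 4.06% of array genes (2.75% of all promoters). A match is a description of the letters and was not shown to be a site. The motifs were chosen with the data in view. The tumor minus normal difference in Dclk1+ cells, described below, had a median of 0.55 over the 11 members with the tract at the start and 0.63 over 32 members without it. With the C allowed within 3 bases of the start the order turned, at 0.75 over 19 members with the tract and 0.58 over 24 without it. For the longer tract the medians were 0.55 over 39 members with it and 1.84 over 4 without it. For CCGGAA they were 0.29 over 27 and 1.09 over 16. Members with GGGCGG (0.55 and 0.63), TATAAA (0.44 and 0.63) and AAGATGGC (0.26 and 0.65) also had the lower median, and those with CACGTG (0.66 and 0.58) the higher. None of these splits was tested.

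Levels are log2 intensities after normalization between arrays, on which 1 unit is a 2-fold difference. They compare the same probe between samples, and a level of 1 probe is not set against that of another. Of the 57 members, 53 were above background (2 SD over the mean of the blank spots) on all 4 arrays, Rpl10 on 1 array, and Rpl3l, Rps12 and Rps20 on none. The 3 dimmest probes were those of Rpl3l, Rps20 and Rps12. Rpl3l is a paralog of striated muscle, whereas Rps12 and Rps20 are parts of every ribosome, so a dim probe here is not evidence of a missing mRNA. At the other end, 30 probes had a mean level of 10 or more and 14 of 14 or more. Members took 19 (Dclk1-) and 18 (Dclk1+) of the 100 brightest probes in tumor and 14 (Dclk1-) and 12 (Dclk1+) in normal. Rps14 was the brightest probe of the Dclk1- tumor array and Rps18 that of the Dclk1+ tumor array.

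The summed signal of the 57 genes was a larger part of the whole in tumor. After subtraction of the blank spots' mean, it made up 8.86% (Dclk1-) and 9.63% (Dclk1+) of all probe intensity in tumor and 6.29% and 5.99% in normal. Both tumor samples lay above both normal samples. This share uses each array alone, so it does not depend on the normalization between arrays, but it moves with every other bright gene in its denominator. With the local background subtracted the shares were 9.08%, 9.77%, 5.89% and 5.68% in the same order.

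**Figure D1:**
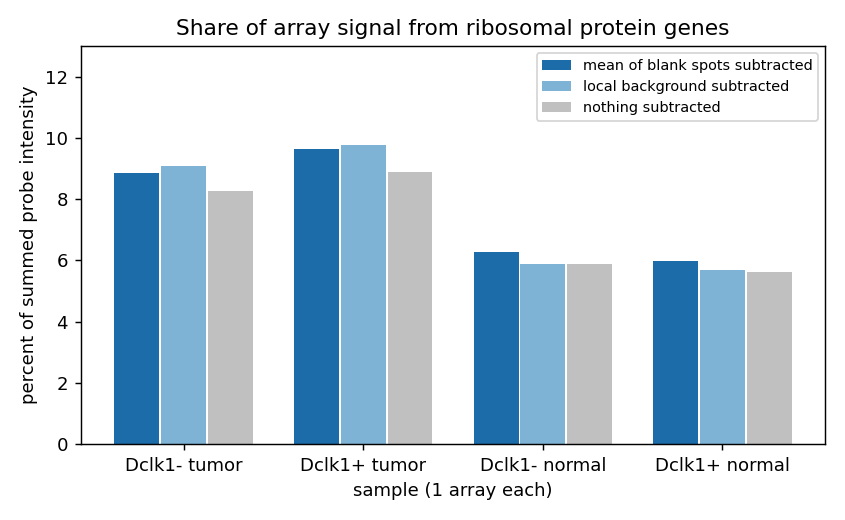
Percent of the summed probe intensity (vertical axis) that came from the 57 ribosomal protein genes in each of the 4 samples, 1 array each, with 3 treatments of the background. The tumor bars for the blank-subtracted values stand at 8.86% and 9.63% and the normal bars at 6.29% and 5.99%.

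Member by member, the same split appeared. Of the 54 members above background on at least 1 array, 32 (59.3%) were higher in both tumor samples than in both normal samples, against 19.7% of all 13467 such genes. In the opposite direction 7 of 54 members were lower in both tumor samples, against 26.0% of all genes: Rpl10, Rpl30, Rpl37, Rpl39l, Rplp1, Rps26 and Rps4l. Rpl10 was above background on the Dclk1+ normal array alone, so it entered only through the sample where it is highest and its order among the other arrays has no meaning. Among genes with a mean level of 10 or more, 24 of 30 members and 25.6% of all 655 genes had both tumor samples above both normal ones. The highest of the 4 samples was Dclk1- tumor for 23 members (42.6%, against 20.6% of all genes) and Dclk1+ tumor for 19 (35.2%, against 20.1%). Each normal sample was the highest for 6 members (11.1%), against 26.4% of all genes in Dclk1- and 32.8% in Dclk1+ cells. The lowest sample was Dclk1+ normal for 29 members (53.7%, against 22.8% of all genes), Dclk1- normal for 12 (against 25.4%), Dclk1+ tumor for 7 (against 23.0%) and Dclk1- tumor for 6 (against 28.9%).

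**Figure D2:**
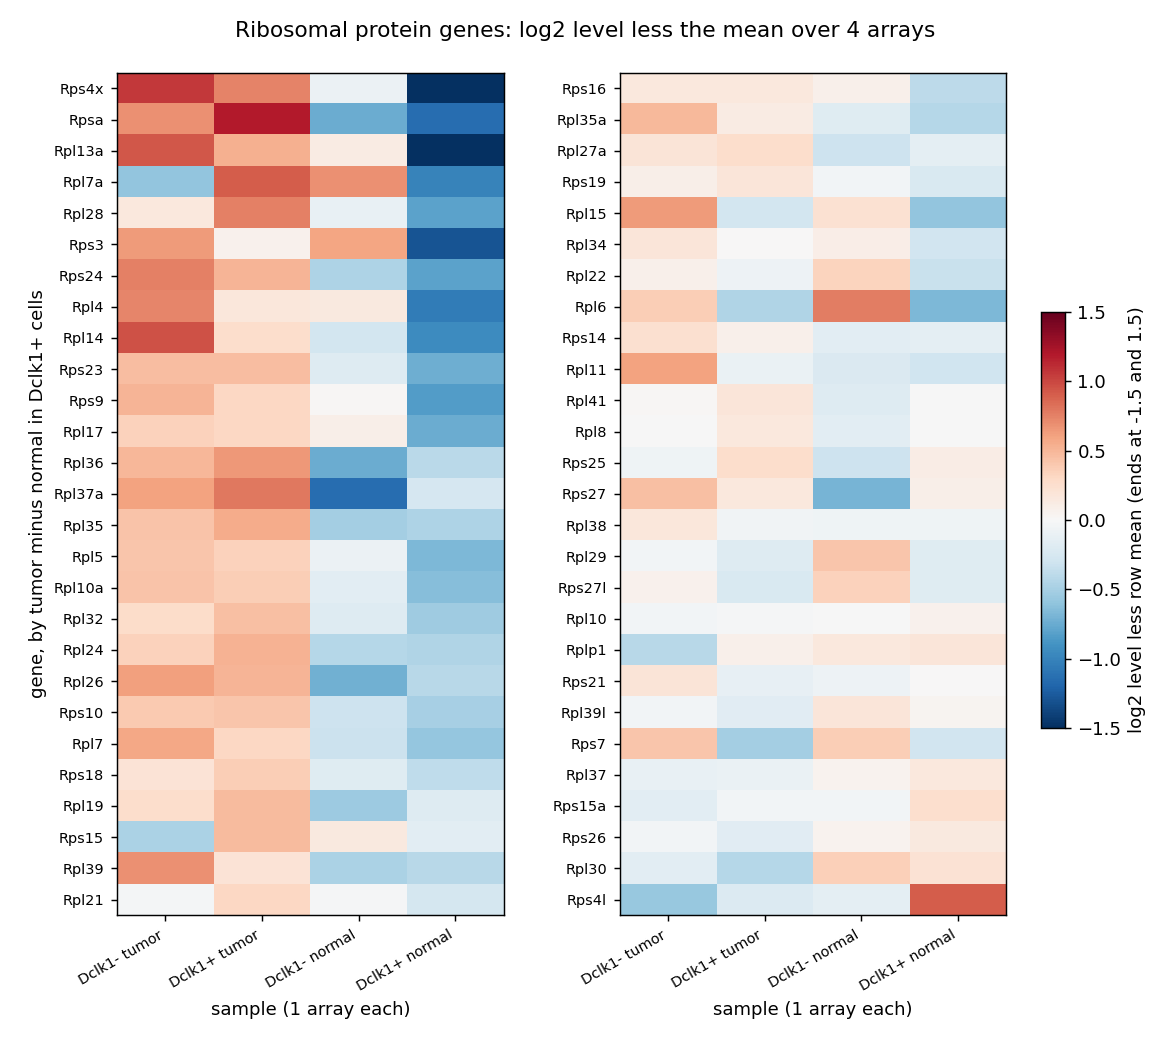
Log2 level of each of the 54 members above background on at least 1 array, less its mean over the 4 arrays (colour), by sample (columns), ordered by the tumor minus normal difference in Dclk1+ cells. The tumor columns are mostly red in the left panel and Dclk1+ normal is the lowest sample of 29 members; Rps4l, at the bottom right, runs the other way.

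Tumor against normal in Dclk1+ cells gave the widest difference. Of 54 members, 17 (31.5%) were at least 2-fold higher in tumor and 1 was at least 2-fold lower, against 4.27% higher and 4.2% lower among all 12869 genes. The median log2 difference was 0.56, with 42 members (77.8%) above 0, and over all genes it was -0.03, with 43.2% above 0. Bright genes pass a 2-fold threshold more often than dim ones. Among genes at a mean level of 10 or more, 36.7% of members (11 of 30) were 2-fold higher, against 13.7% of all genes, and 1 member was lower, against 16.8% of all genes. The members' median there was 0.90 and that of all genes -0.09. The count was lower without quantile normalization, at 9 higher and 1 lower with median scaling (3.64% and 4.71% of all genes) and again with 75th percentile scaling (3.56% and 4.89%). The authors' deposited table gave 10 of 54 higher and 5 lower beside 13% and 26.0% of all genes, so the share of higher members was close to that of all genes there. Empty values of that table were set to the lowest value of the same sample. Its counts and shares, here and below, therefore rest partly on filled values, as for Rpl10, which was empty in Dclk1+ tumor. The median of all genes lay at -0.37 in it and that of the members at 0.41.

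Rps4x, the X-linked gene of a protein on the solvent side of the small subunit, led this comparison. Its level was 14.26 (Dclk1-) and 13.94 (Dclk1+) in tumor and 13.12 (Dclk1-) and 11.48 (Dclk1+) in normal. The log2 difference of 2.46 is a 5.49-fold higher signal in Dclk1+ tumor cells, and Dclk1+ normal was the low sample. Rpsa, which encodes the small subunit protein also called the laminin receptor, stood at 9.49, 10.00, 8.07 and 7.67 in the same order. Both tumor samples were high, and the difference in Dclk1+ cells was 2.33, or 5.04-fold. Rpl13a, a large subunit protein also known as a translational silencer in the interferon-γ response, stood at 9.68, 9.29, 8.87 and 7.17. Here Dclk1+ normal alone was far below the other samples, and the difference of 2.12 became -0.87 with the local background subtracted. Under that setting Rpl28 (1.56), Rps3 (1.35) and Rpl7a (1.92) were no longer 2-fold higher, at 0.44, 0.63 and 0.51, and Rpsa was at 1.38.

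Members were also described by their place in the ribosome. The 7 measured proteins of the exit tunnel and its rim were all above 0 in this comparison (median 0.93), with Rpl4, which lines the tunnel wall, at 1.22, Rpl17 at 1.05, Rpl35 at 1.02 and Rpl22 lowest at 0.26. Of all large subunit members 82.4% were above 0, as were 90.0% of members at 10 or more (median 0.90) and 43.2% of all genes. The exit tunnel proteins were thus close to the bright members as a whole. Of the proteins that bind 5S rRNA and restrain Mdm2, Rpl5 was at 1.02 and Rpl11 at 0.20. At the mRNA channel of the small subunit, Rps3 of the entry side was at 1.35. Of the exit side, Rpsa was at 2.33 and Rps26 at -0.32. Rps23 and Rps15, which reach into the decoding centre, were at 1.20 and 0.63. Rplp1, from the acidic stalk that recruits elongation factors, was at -0.11 from a dim probe (6.15, 6.64, 6.72 and 6.75 in the order above). By subunit, 11 of 34 large and 6 of 20 small subunit genes were 2-fold higher, with medians of 0.59 and 0.48, against 4.27% of all genes and 13.7% of bright genes.

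Of the members lower in Dclk1+ tumor cells, the only gene past 2-fold was Rps4l, a paralog of Rps4x. It stood at 9.48 (Dclk1-) and 9.85 (Dclk1+) in tumor and 9.91 (Dclk1-) and 10.96 (Dclk1+) in normal. Dclk1+ normal was its highest sample and the lowest of Rps4x, so the probes of the related genes ran in opposite directions (-1.11 and 2.46). With the local background subtracted Rps4l was at -3.07. The next lowest were Rpl30 (-0.64), Rps26 (-0.32), Rps15a (-0.29) and Rpl37 (-0.26). Rps26 was bright throughout and level, between 14.38 and 14.70. The brightest probes showed smaller differences than those of middle brightness: the median was 0.71 over the 14 members at 14 or more and 1.00 over the 16 from 10 to 14. Rps14, Rpl41, the smallest ribosomal protein, and Rps18, the 3 brightest by mean, were at 0.22, 0.19 and 0.75.

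In Dclk1- cells tumor was again the higher side, with a smaller difference. Of 53 members, 9 (17.0%) were at least 2-fold higher in tumor and 1 was lower, against 5.83% and 5.24% of all 12340 genes, and the median was 0.38 against -0.02. Of the members 39 (73.6%) were above 0, against 44.5% of all genes. Among genes at 10 or more, 6 of 30 members (20.0%) were 2-fold higher and 0 lower, against 16.0% and 13.6% of all genes, so that the 2-fold count of bright members was near this background, while their median was 0.54 against 0.01 and 27 of 30 were above 0. Median and 75th percentile scaling each gave 11 higher and 1 lower, against 6.57% and 5.13% of all genes with the first and 6.05% and 5.52% with the second. The authors' deposited table gave 7 of 54 higher and 4 lower, beside 14.1% and 28.1% of all genes, so no excess of 2-fold higher members remained in it. The median of all genes there was -0.45 and that of the members 0.16.

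Rpl37a, a zinc-finger protein of the large subunit, led in Dclk1- cells. It stood at 13.93 (Dclk1-) and 14.11 (Dclk1+) in tumor and 12.18 (Dclk1-) and 13.07 (Dclk1+) in normal, a difference of 1.75 in Dclk1- and 1.04 in Dclk1+ cells. Both tumor samples were high, Dclk1- normal was the low one, and its second probe gave 1.80 and 1.26. Rpsa (1.42), Rpl26 (1.34), Rpl36 (1.23), Rpl14 (1.23), Rps24 (1.22), Rpl39 (1.16), Rps27 (1.14) and Rps4x (1.14) followed. With the local background subtracted Rps4x turned to -1.76, Rpl39 (0.16), Rpl36 (0.69) and Rpl14 (0.84) were no longer 2-fold higher, and Rps27 was at 3.15. Rps27 was low in Dclk1- normal alone, with 13.98, 13.69, 12.83 and 13.61 in the order above. The lowest differences in Dclk1- cells were those of Rpl7a (-1.28), Rps15 (-0.62), Rplp1 (-0.57), Rpl30 (-0.52) and Rpl29 (-0.45).

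The tumor comparisons in Dclk1+ and in Dclk1- cells share no array. Over the 53 members measured in both, the differences correlated with a Pearson r of 0.494 and a Spearman rho of 0.583, and over all 11743 genes with 0.524 and 0.465. The points share their normalization and each probe its binding properties. In both cell types 37 of the 53 members were above 0, as were 3287 of the 11743 genes, and 6 (11.3%) were at least 2-fold higher in both, against 2.46% of all genes: Rpl14, Rpl36, Rpl37a, Rps24, Rps4x and Rpsa. Of these, Rpl14, Rpl36 and Rps4x did not stay 2-fold higher in Dclk1- cells with the local background subtracted. The value of Rps24 under that setting is not given here. None was 2-fold lower in both, against 1.45% of all genes. Rpl14 stood at 9.43 (Dclk1-) and 8.74 (Dclk1+) in tumor and 8.20 (Dclk1-) and 7.54 (Dclk1+) in normal. Rps24, a small subunit gene mutated in some cases of Diamond-Blackfan anaemia, stood at 9.06, 8.81, 7.83 and 7.49. In both genes the tumor samples lay above the normal samples and the Dclk1+ sample was the lower of each pair.

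**Figure D3:**
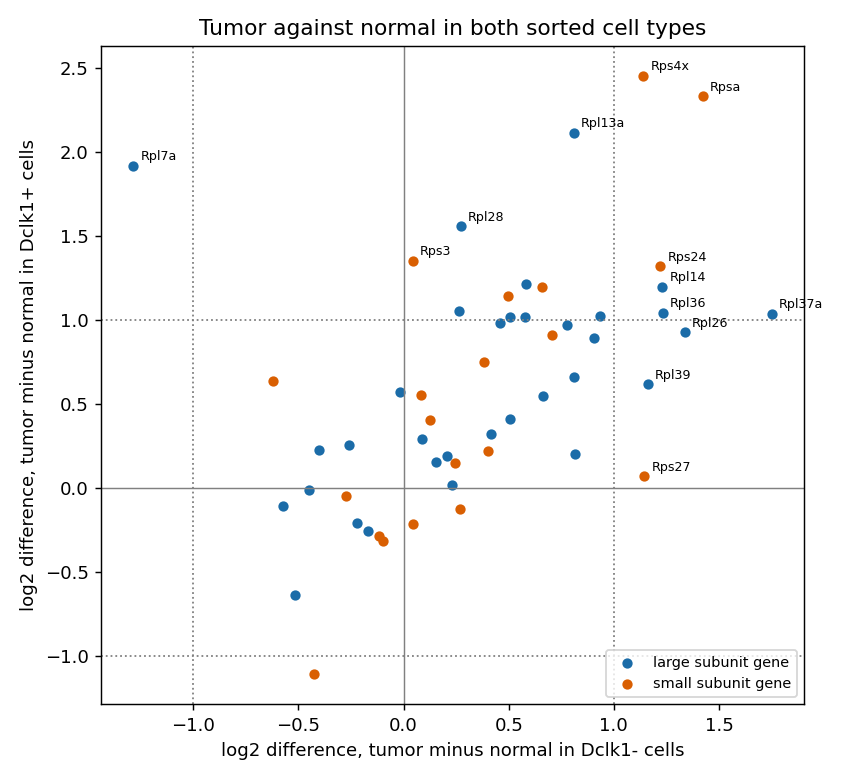
Log2 difference of tumor minus normal in Dclk1- cells (horizontal axis) and in Dclk1+ cells (vertical axis) for the 53 ribosomal protein genes measured in both; dotted lines mark 2-fold. The 6 genes in the upper right corner are 2-fold higher in both, and Rpl7a, at -1.28 and 1.92, is 2-fold apart in opposite directions.

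Dclk1+ against Dclk1- cells gave smaller differences. In normal epithelium 6 of 54 members (11.1%) had a signal 2-fold or more lower in the Dclk1+ sample and 1 (1.85%) was higher, against 5.92% lower and 5.66% higher of all 12844 genes. The median was -0.22 against 0.01, and 35 of 54 members were below 0, while 54.1% of all genes were above 0. Among bright genes, 3 of 30 members (10.0%) were 2-fold lower, under the 15.0% of all genes there, and 1 was higher, against 20.2%. The median kept its sign with median scaling (-0.22) and 75th percentile scaling (-0.09) and was 0.08 in the authors' deposited table, where that of all genes was 0.24. The 2-fold counts there were 4 higher and 7 lower of 54, beside 22.4% and 15.4% of all genes, so the share of lower members did not exceed that of all genes. With 75th percentile scaling they were 2 higher and 6 lower, against 6.07% and 5.71%. This comparison shares the Dclk1+ normal array with the tumor comparison in Dclk1+ cells, so a low value on that array enters both.

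The members 2-fold lower in Dclk1+ normal cells were Rps3 (-1.88), Rpl13a (-1.70), Rpl7a (-1.69), Rps4x (-1.63), Rpl6 (-1.44) and Rpl4 (-1.20). Rps3, a protein of the mRNA entry channel, stood at 13.30 (Dclk1-) and 12.73 (Dclk1+) in tumor and 13.25 (Dclk1-) and 11.37 (Dclk1+) in normal. Only the last sample stood apart, 3.68-fold below its Dclk1- partner. With the local background subtracted the difference was -0.81, and that of Rpl7a -0.53, neither of which is 2-fold. Rpl6 had 10.03, 9.21, 10.43 and 8.99, so that the Dclk1+ sample was the lower of both pairs. The 5 most positive members were Rps4l (1.05), Rpl37a (0.89), Rps27 (0.78), Rps25 (0.42) and Rpl19 (0.35).

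In tumors the members were nearly level between Dclk1+ and Dclk1- cells. The median was -0.06 over 53 members, against 0.01 over all genes, with 1 member (1.89%) at least 2-fold higher and 0 lower, against 1.76% and 2.13% of all 12197 genes. Among the 30 bright members 0 were 2-fold higher or lower, against 4.89% and 4.73% of all bright genes. With median scaling the counts were 1 higher and 3 lower (1.17% and 3.61% of all genes), and the authors' deposited table gave 4 higher and 2 lower (17.5% and 10.8%) with a median of 0.29 beside 0.33 for all genes. Rpl7a (1.51, or 0.78 with the local background subtracted) was the higher gene, followed by Rps15 (0.95), Rpl28 (0.59), Rpsa (0.51) and Rplp1 (0.49). At the other end were Rps7 (-0.92), Rpl15 (-0.91), Rpl6 (-0.82), Rpl11 (-0.70) and Rpl14 (-0.69). Rps7 stood at 8.63 (Dclk1-) and 7.71 (Dclk1+) in tumor and 8.58 (Dclk1-) and 7.92 (Dclk1+) in normal, lower in the Dclk1+ sample of both pairs, as Rpl15 was with 9.37, 8.46, 8.95 and 8.14. No member was 2-fold lower, or 2-fold higher, in Dclk1+ cells of both histologies, against 1.3% and 1.38% of all genes.

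**Figure D4:**
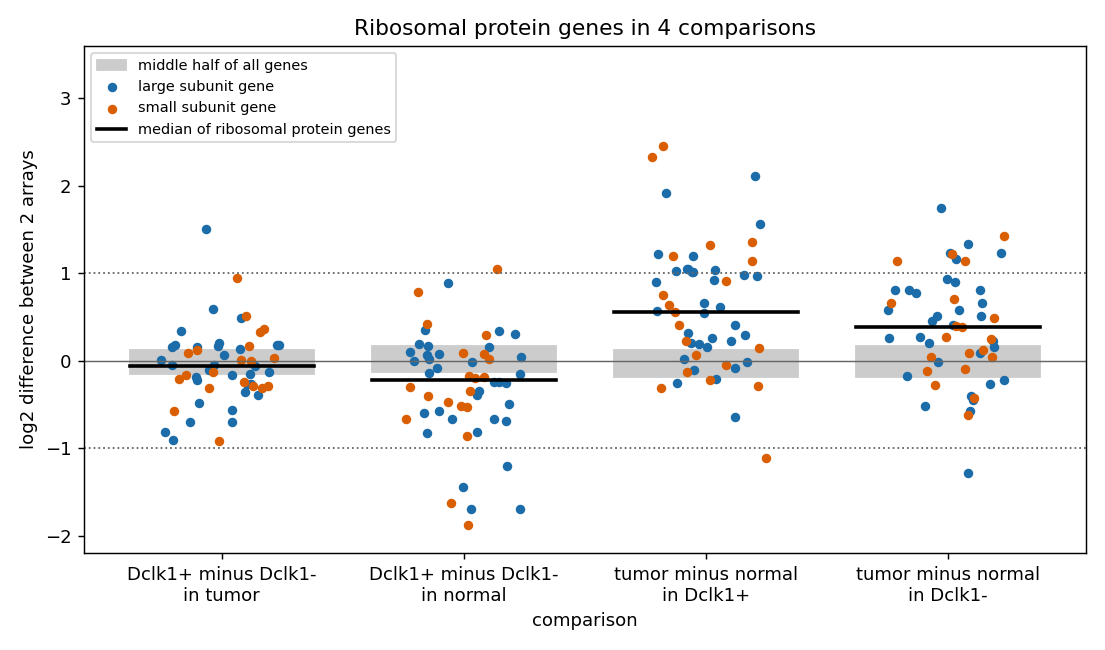
Log2 difference between 2 arrays (vertical axis) of each ribosomal protein gene above background, in 4 comparisons; points are genes coloured by subunit, black lines are their medians (-0.06, -0.22, 0.56 and 0.38), grey boxes span the interquartile range of all genes and dotted lines mark 2-fold. The members lie mostly above the grey box in the tumor minus normal comparisons.

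The choice of fold sets these counts. At 1.5-fold, 26 members were higher and 2 lower in tumor in Dclk1+ cells, against 8.8% and 9.72% of all genes, and 18 higher and 2 lower in Dclk1- cells, against 11.6% and 10.6% of all genes. At 4-fold, Rps4x, Rpsa and Rpl13a (3 members) were higher in Dclk1+ cells and 0 lower, against 1.17% and 0.42% of all genes, and 0 in Dclk1- cells, against 1.17% and 1.3% of all genes. For Dclk1+ against Dclk1- normal cells, 1.5-fold gave 3 higher and 14 lower, against 11.1% and 10.2% of all genes, and 4-fold gave 0 of either, against 1.61% and 2.16% of all genes. In tumor the 1.5-fold counts were 3 and 5, against 5.57% and 6.63% of all genes, and 4-fold gave 0 of either, against 0.435% and 0.287% of all genes.

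The paralogs whose symbols end in l are thought to replace or supplement a parent protein in particular tissues or states. Rps27l, a target of p53 and paralog of Rps27, was measured clearly, at 10.81 (Dclk1-) and 10.51 (Dclk1+) in tumor and 11.08 (Dclk1-) and 10.56 (Dclk1+) in normal. It was lower in tumor by 0.28 in Dclk1- cells, where Rps27 was higher by 1.14, and near level in Dclk1+ cells (-0.05 against 0.07 for Rps27). Rpl39l, a paralog best known from testis, was dim (between 5.78 and 6.14), and its parent Rpl39, which lines the exit tunnel, stood at 11.61, 11.12, 10.45 and 10.51. Rpl39 was higher in both tumor samples and Rpl39l lower. None of the 3 paralogs above background was higher in tumor, with differences from -1.11 to -0.05 in Dclk1+ cells and from -0.42 to -0.22 in Dclk1- cells. Probes of such close genes can bind the RNA of more than 1 of them.

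Of the 3 members with a second probe, the probes of Rpl26 and Rpl37a agreed in direction in all 4 comparisons, and those of Rpl5 in 3 of them. The brighter Rpl5 probe gave 1.02 for tumor against normal in Dclk1+ cells and the dimmer one 2.33. In Dclk1+ against Dclk1- tumor cells they gave -0.06 and 0.30. Over all genes with several probes, the SD between probes of a gene was 0.39, 0.79, 0.51 and 0.71 log2 for Dclk1+ minus Dclk1- in tumor and in normal and for tumor minus normal in Dclk1+ and in Dclk1- cells.

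Other genes of translation were taken as whole lists. For tumor against normal their counts stand beside 5.83% higher and 5.24% lower of all genes in Dclk1- cells and 4.27% and 4.2% in Dclk1+ cells. Ribosome biogenesis genes, which make and fold rRNA and assemble the subunits, had the highest medians of these other lists for tumor against normal: 13 of 43 were at least 2-fold higher in tumor in Dclk1- cells and 0 lower (median 0.66), and 8 of 43 were higher and 0 lower in Dclk1+ cells (median 0.31). Gnl3, nucleostemin, was at 2.33 and Ncl, nucleolin, at 1.81 in Dclk1- cells, and Npm1, nucleophosmin, at 1.97 and Utp20, of the small subunit processome, at 1.94 in Dclk1+ cells. For Dclk1+ against Dclk1- cells this list had medians of -0.06 in tumor and -0.04 in normal. In tumor 1 of 43 was 2-fold higher and 1 lower, against 1.76% and 2.13% of all genes. These were Tsr1, a small subunit assembly factor (1.38), and Nop58 (-1.07). In normal 3 were higher and 2 lower, against 5.66% and 5.92% of all genes, with Tsr1 at 3.25, Emg1 at -1.72 and Npm1 at -1.70.

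Mitochondrial ribosomal proteins, which share the name and not the machine, had medians near 0 for tumor against normal (0.07 over 73 genes in Dclk1+ and -0.01 over 74 in Dclk1- cells), with 3 of 73 higher and 1 lower, and 3 of 74 higher and 3 lower, shares near those of all genes (4.27% and 4.2%, and 5.83% and 5.24%). In Dclk1+ against Dclk1- normal cells 10 of 74 were lower and 3 higher (median -0.13), against 5.92% and 5.66% of all genes, with Mrps28 at -2.71. Initiation factors had 3 of 27 higher and 0 lower in tumor in Dclk1+ cells (median 0.09) and 7 of 29 higher and 0 lower in Dclk1- cells (median 0.22), led by the poly(A)-binding protein gene Pabpc1 at 2.36 and 2.70. Elongation and release factors had 0 of 12 higher or lower in Dclk1+ cells (median -0.16) and 0 of 13 higher and 2 lower in Dclk1- cells (median -0.03). Those 2 were Tpt1 (-1.39) and Eif5a (-1.12). Of the 13, 5 were above 0, led by Eef1b2 (0.93) and Etf1 (0.73). RNA polymerase I, mTOR and S6 kinase, and Myc lists had no gene 2-fold higher or lower for tumor against normal, over 7, 16 and 8 genes in Dclk1+ and 7, 15 and 8 in Dclk1- cells. Myc itself was at 0.30 and 0.42, from a dim probe. It read 6.33 (Dclk1-) and 6.08 (Dclk1+) in tumor and 5.91 (Dclk1-) and 5.79 (Dclk1+) in normal. Other genes of these lists, such as Larp1 and Mnt, were also dim. The background correction used compresses dim signals, so the lack of a 2-fold difference in such genes says little.

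**Figure D5:**
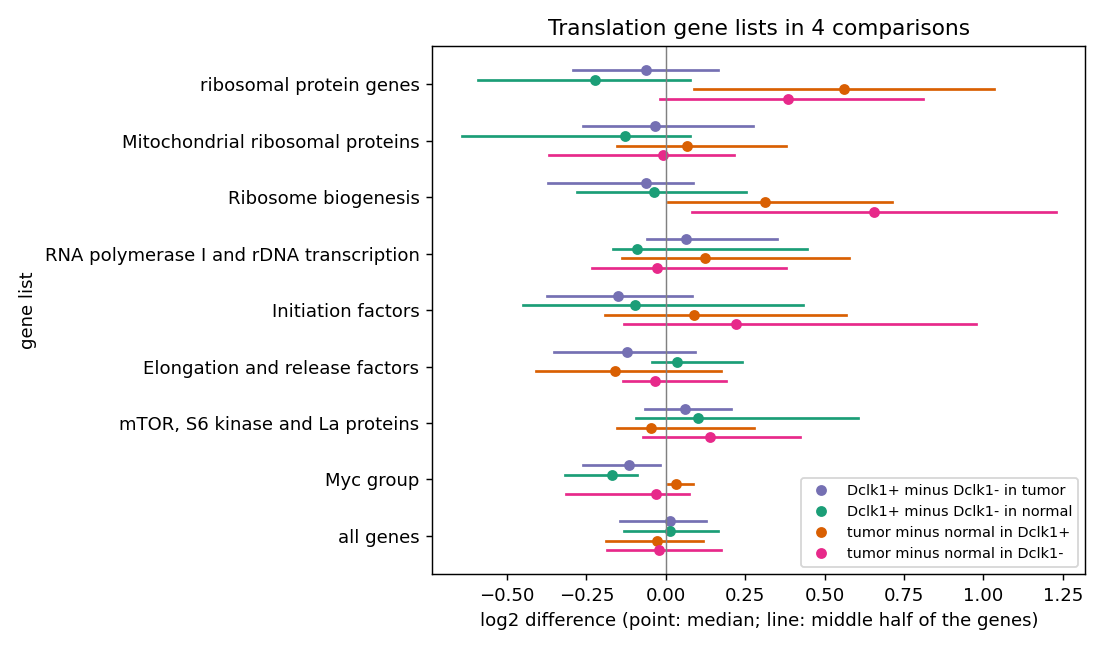
Median (point) and interquartile range (line) of the log2 difference over the genes of each translation list (rows) in the 4 comparisons (colours). For tumor minus normal, ribosomal protein genes (0.56 and 0.38) and ribosome biogenesis genes (0.31 and 0.66) have the highest medians of the lists shown, in Dclk1+ and Dclk1- cells.

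Other properties also differed between the samples, not all in the same direction as these results. They are given here as summed spot intensity less the blank spots. The 5 cycling cell markers summed to 3090 (Dclk1-) and 1440 (Dclk1+) in tumor and 4020 (Dclk1-) and 300.0 (Dclk1+) in normal. The sum was higher in tumor in Dclk1+ cells and not in Dclk1- cells, and Top2a was not above background in Dclk1+ normal. For tumor minus normal, all 5 were above 0 in Dclk1+ cells, against 43.2% of all genes. In Dclk1- cells 2 were above 0 and 3 below (median -0.01), against 44.5% of all genes above 0. All 5 enterocyte markers with a probe were above background in every sample. They summed to 14800, 1510, 50800 and 1860 in the same sample order as the cycling sums, and the 5 goblet markers to 27400, 10600, 98500 and 1520. The 3 Paneth markers with a probe, secreted by cells of the crypt base, were above background everywhere and summed to 21000, 9270, 3870 and 93.5, so they were higher in tumor in both cell types. The 6 enteroendocrine markers summed to 423, 630, 29700 and 3860, lower in tumor in both cell types, with Chga above background in Dclk1- normal alone. In Dclk1- cells 5 of 6 were at least 2-fold lower in tumor, against 5.24% of all genes. In Dclk1+ cells 1 of 5 was, against 4.2% of all genes, and it was Sct (-2.25). The 9 tuft markers with a probe summed to 426, 11300, 331 and 45000, with 7, 8, 8 and 9 above background. On the log2 scale Dclk1 itself was higher in the Dclk1+ sample by 0.69 in tumor and by 1.41 in normal. Its log2 level in Dclk1- normal (7.59) was nevertheless above that in Dclk1+ tumor (6.64), unlike the summed tuft signal of these samples (331 and 11300). Dclk1 RNA thus followed the labels within each histology and not across them. The 5 myeloid markers with a probe summed to 3250, 801, 318 and 817, and the 5 fibroblast and smooth muscle markers to 316, 105, 28.3 and 20.7. Itgam was not above background on any array, nor was Pecam1 or Cdh5 of endothelium. The part of these cells in the ribosomal protein signal was not tested, and in bulk samples fewer cells of a type and less RNA per cell cannot be told apart. The local background around the members' spots was also larger on tumor arrays, at a median of 0.706 and 0.587 of the spot in Dclk1- and Dclk1+ tumor against 0.404 and 0.343 in Dclk1- and Dclk1+ normal. With it subtracted, the members' median for tumor against normal was 0.40 in Dclk1+ and 0.16 in Dclk1- cells, with 15 higher and 3 lower (3.82% and 4.13% of all genes), and 10 higher and 5 lower (5.13% and 5.45%).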

How the data were processed

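Total RNA was amplified and labelled with Cy5 per the labels' protocols. Per the file headers, the authors' scanner output gives a median intensity for every spot and for the area around it, linear and not background-subtracted, with scans at several gains combined. The table that the authors deposited for the series has intensity values lying on a straight line of those spots. Its dim probes are empty and its column medians are 24.99, 25.0, 25.01 and 25.0. How it was scaled is not known. For log2 differences here, its empty values were set to the lowest value of the same sample.

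Here spots were corrected by normexp (offset 50, which compresses dim signals) with limma 3.58.1 under R 4.3.3. Local background tracked spot brightness and was therefore kept in. Control and outlier spots were left out, quantile normalization was applied to the 4 arrays, and log2 was taken. A gene entered a comparison if above background on at least 1 of its 2 arrays. The procedure was tested on simulated data.

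Of 16631 probes with 1 symbol, 12622 symbols were current and 3947 were synonyms of 1 gene in RefSeq (GRCm38.p6), which also gave the promoters. Protein sequences were not used here. Named members are the 5 most positive and 5 most negative in each comparison, the paralogs ending in l with their parents, the stalk, and the 3 brightest and 3 dimmest probes; for other lists, they come from the 2 most positive and 2 most negative. Members named by their place in the ribosome or with their sequence were chosen after their values were seen. The members and lists were chosen with earlier results of these data known. Alternatives covered the offset, background, scaling, probe choice, filter and fold threshold.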

Additional observations from a re-analysis of the deposited data

Results flagged for a closer look

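Rpl7a, a protein of the large subunit, was the 1 member at least 2-fold apart in opposite directions in the same contrast. It stood at 7.95 (Dclk1-) and 9.46 (Dclk1+) in tumor and 9.23 (Dclk1-) and 7.54 (Dclk1+) in normal, so that Dclk1+ tumor and Dclk1- normal were high and the other samples low. Dclk1+ minus Dclk1- was 1.51 in tumor and -1.69 in normal, which differ by 3.20, and tumor minus normal was 1.92 in Dclk1+ and -1.28 in Dclk1- cells, which differ by the same 3.20 because the same 4 arrays enter. The difference was not tested, since each group is 1 array. All 4 values kept their sign with the local background subtracted (0.78, -0.53, 0.51 and -0.80) and in the authors' deposited table (1.91, -1.88, 2.08 and -1.71). Rpl7a was read on a single probe.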

How the results depend on the processing

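The members' median for tumor against normal was positive in both cell types under every alternative run. For Dclk1+ against Dclk1- cells the authors' deposited table gave 0.29 in tumor and 0.077 in normal, both below the median of all genes there. With the local background subtracted the median in tumor also turned positive, at 0.12 with 31 of 53 members above 0. It then lay above that of all genes (-0.0025). In normal it stayed negative under that setting, at -0.18. For tumor against normal in Dclk1+ cells the median was 0.90 over the 30 members at 10 or more, a limit chosen after seeing the data. A tract was found in 42.2% of members with the C within 3 bases of the start, and in 91.1% with the longer tract near it (also chosen after seeing the data), against 24.4% at the start. With the local background subtracted, Rpl13a (tumor against normal in Dclk1+ cells) was at -0.87 and Rps4x (in Dclk1- cells) at -1.76. Under that setting Rps3, Rpl7a, Rpl28, Rpl39, Rpl36 and Rpl14 each lost a 2-fold call. The causes were not tested.

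Counts moved by over 1.5 times as follows. The 17 higher of 54 members for tumor against normal in Dclk1+ cells were 9 with median or 75th percentile scaling and 10 in the authors' deposited table. They were 26 at 1.5-fold and 3 at 4-fold. Among the 30 bright members they were 11, a larger share (36.7% against 31.5%). The 1 lower was 5 with the blank mean subtracted, 3 with the local background and 5 in the authors' deposited table, and 0 without the paralogs. In Dclk1- cells 9 became 18 at 1.5-fold and 0 at 4-fold, and 1 lower became 4, 5 and 4. For Dclk1+ against Dclk1- normal cells, 1 higher became 2, 3 and 4 under the same settings, 2 with 75th percentile scaling and 0 without the paralogs. The 6 lower became 14 at 1.5-fold and 3 of the 30 bright members, a similar share (10.0% against 11.1%). In tumor, 1 higher became 4, 3 and 4 and 0 lower became 4, 4 and 2, or 3 with median scaling and 1 with an offset of 16. These counts stand beside other shares of all genes. With the blank mean subtracted, all genes were 18.4% higher and 22.3% lower for tumor against normal in Dclk1+ cells, 20.3% and 21.8% in Dclk1- cells, and for Dclk1+ against Dclk1- 20.2% and 20.1% in normal and 13.8% and 15.9% in tumor. In the authors' deposited table they were 13% and 26.0%, 14.1% and 28.1%, 22.4% and 15.4%, and 17.5% and 10.8% in that order, and with the local background 3.82% and 4.13%, 5.13% and 5.45%, 4.39% and 4.37%, and 3.18% and 2.99%. An offset of 16 gave 3.33% and 4.63% in tumor. Dim probes limit what can be seen, with 3 members above background on no array. No paired analysis was possible because each group is 1 array.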

Other observations

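Some ribosomal protein genes fall outside the symbol rule. Rps3a1, whose array symbol is Rps3a, stood at 15.48 (Dclk1-) and 15.24 (Dclk1+) in tumor and 14.80 (Dclk1-) and 14.82 (Dclk1+) in normal, with both tumor samples above both normal ones. Rpl22l1, a paralog of Rpl22, stood at 13.10, 13.28, 12.73 and 11.74, with Dclk1+ normal the low sample, and its tumor minus normal difference was 1.54 in Dclk1+ and 0.37 in Dclk1- cells. Fau, which encodes the small subunit protein Rps30 fused to a ubiquitin-like protein, was level between tumor and normal, at 14.09, 14.33, 14.13 and 14.38.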
